A study of Mus musculus with 62 samples.

Results

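Transcripts of 8 genes that hold the cell cycle in G1 were followed through the making of mouse male germ cells in culture and in the animal. They were selected by gene symbol as 5 inhibitors of cyclin-dependent kinases (CDKs), namely Cdkn1b, Cdkn2a, Cdkn2b, Cdkn2c and Cdkn2d, and the 3 members of the retinoblastoma family, Rb1, Rbl1 and Rbl2. All 8 were found among 35914 nuclear genes, and 7 passed the filter on low values that left 16008 genes for testing. Cdkn2a did not pass it.

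The libraries, 62 in 31 groups of 2, read the 3′ ends of transcripts from 1 ng of total RNA. The culture started from embryonic stem cells of strain B6C3(Cg) × C57BL/6 with the reporters Prdm1-mVenus, Dppa3-ECFP and mvh(Ddx4)-RFP, each on 1 allele. It was sampled as primordial germ cell (PGC)-like cells at d4 and d4c5, as prospermatogonia-like cells at 4 time points from m0 to m7, and from m10 to m14 as spermatogonia-like cells. From m0 on the germ cells sat in reconstituted testes, made from PGC-like cells and somatic cells of E12.5 fetal testes, and they were sorted from that tissue by their reporters. Germline stem cell (GSC)-like lines, labelled as grown from m14 cells positive for the RFP reporter and CD9, formed the sets S1 to S4, 16_W1, 16_W2 and 16_W4, and W1 to W4. They were set beside the line GSC1, itself a single line, and all 12 lines are labelled Acr-EGFP and Actin-EGFP on strain 129/SvJcl x C57BL/6. The in vivo cells were sorted by a Ddx4-RFP transgene from crosses of ICR females with transgenic males, as prospermatogonia on each day from E14.5 to E18.5 and as spermatogonia at 5 ages from P0 to P7. The labels leave the meaning of W, S and 16 unsaid, and also whether paired libraries came from different cultures or mice. Except between line sets, p-values therefore measure no more than library-to-library spread, possibly technical.

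In a dividing cell, cyclin D with CDK4 or CDK6 and cyclin E with CDK2 phosphorylate the Rb proteins, which then release the E2F factors that switch on genes for DNA synthesis. The INK4 proteins p16 (from Cdkn2a), p15 (Cdkn2b), p18 (Cdkn2c) and p19 (Cdkn2d) bind CDK4 and CDK6, whereas p27 (Cdkn1b), of the CIP/KIP family, binds cyclin and CDK together. pRB (Rb1), p107 (Rbl1) and p130 (Rbl2) restrain E2F genes, and p107 is itself known as an E2F target, high in cycling cells, while p130 is known to build up in resting cells and to hold the DREAM repressor complex together. Male germ cells stop dividing in the fetal testis, rest in G0 or G1 as prospermatogonia, and divide again after birth. Loss of pRB in mice is known to delay that arrest.

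The promoters of Rbl1, Rbl2 and Cdkn2c are shown from RefSeq on GRCm38.p6, as 250 bases before to 50 after the start of transcription, 5′ to 3′. Rbl1 and Rbl2 changed with opposite signs at the 4 main transitions described below. Of these, Rbl2 was called only at P3 to P7 over E16.5 to E18.5. Cdkn2c was the INK4 gene called higher both at m7 over m0 and at E16.5 to E18.5 over E14.5. Capitals mark any of 4 strings of the E2F consensus, TTCCCGC, TTTGGCGC, TTTCGCGC and TTTGCCGC, searched on both strands. Of these TTTCGCGC and TTTGCCGC were added after the Rbl1 sequence had been seen.
Rbl1 (chr2:157204485-157204784, strand -): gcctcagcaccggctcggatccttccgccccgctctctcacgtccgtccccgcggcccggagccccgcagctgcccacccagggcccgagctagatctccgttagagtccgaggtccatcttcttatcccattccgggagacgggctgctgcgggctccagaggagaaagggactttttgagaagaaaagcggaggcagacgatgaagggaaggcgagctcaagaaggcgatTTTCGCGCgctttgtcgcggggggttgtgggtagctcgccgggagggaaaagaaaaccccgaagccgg
Rbl2 (chr8:91069807-91070106, strand +): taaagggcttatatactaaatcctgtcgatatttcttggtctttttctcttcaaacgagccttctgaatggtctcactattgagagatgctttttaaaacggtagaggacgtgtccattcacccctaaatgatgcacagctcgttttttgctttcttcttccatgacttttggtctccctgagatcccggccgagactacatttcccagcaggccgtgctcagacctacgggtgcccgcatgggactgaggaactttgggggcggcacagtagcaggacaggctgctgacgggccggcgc
Cdkn2c (chr4:109666707-109667006, strand -): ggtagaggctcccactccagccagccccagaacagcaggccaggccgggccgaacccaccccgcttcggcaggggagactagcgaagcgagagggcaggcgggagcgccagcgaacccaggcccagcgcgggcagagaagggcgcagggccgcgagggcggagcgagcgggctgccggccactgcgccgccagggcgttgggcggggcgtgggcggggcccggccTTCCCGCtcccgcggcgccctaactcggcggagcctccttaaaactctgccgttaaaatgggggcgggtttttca
The Rbl1 window held TTTCGCGC at position -18 from the start, and none of the strings searched first, TTCCCGC and TTTGGCGC, so its match was fixed by the choice of the string and says nothing of how rare it is. The Cdkn2c window shown held TTCCCGC at position -25, a string in 4.6% of 32851 promoter windows of this length, and the other Cdkn2c window (chr4:109665323-109665622) held none of the 4. The Rbl2 window held none of them either. Windows were matched for 7 of the 8 genes, all but Rb1, 9 in all, and TTCCCGC also occurred in 1 of the Cdkn2a windows. The string TTTGAA, the core of the cell cycle homology region that DREAM reads, was in the windows of Rbl2 and Cdkn2b and in 17.9% of all windows. A match describes letters, not a site in use.

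Reads of nuclear genes numbered 1404261 to 4485280 per library. The most any group held for a member was 1089 reads, for Rb1 at P0, and several members rested on fewer than 30 reads a group, so that precision differed widely between genes. Germ cell marker RNA (10 genes, summed) was 102 to 694 CPM from d4 to m0 and 1319 to 4777 CPM from m3 to m14. It was 3463 to 4641 CPM in the GSC-like lines, and 3021 to 5645 CPM in vivo. Levels are given as CPM, the reads of a gene scaled to a common total of nuclear reads and adjusted by TMM. In culture the library numbered 1 at each time point from d4c5 to m14 had a mitochondrial share of counted reads of 3.29% to 5.98%, against 7.99% to 16.7% for the library numbered 2. Cdkn1b and Rbl1 were higher in the library numbered 2 at 7 of these 8 time points and Rb1 at 8 of 8. Cdkn2c and Cdkn2d were higher in the library numbered 1 at 7 of 8. The part of this in the results was not tested. In bulk samples, fewer cells of a type and less RNA per cell cannot be told apart. Markers of somatic cells moved with several comparisons. Summed Sertoli markers were 774 and 480 CPM at m7 and 776 and 932 CPM at m0, and stromal markers 717 and 757 CPM at m7 and 255 and 509 CPM at m0. Macrophage markers were 215 to 557 CPM at m12 and m14, 92.7 and 78.0 CPM at m7, and 31.7 to 47.5 CPM at P3 and P5. In vivo, Sertoli markers summed to 45.8 to 121 CPM at P3 to P7, 296 to 469 CPM at E16.5 to E18.5, and 135 and 96.5 CPM at E14.5. Stromal markers were 63.3 to 119.6 CPM at P3 to P7, 423 to 672 CPM at E16.5 to E18.5 and 138 and 160.1 CPM at E14.5, and blood markers 3.03 to 21.2, 88.1 to 319, and 117 to 121 CPM in the same groups. At m12 and m14 Sertoli markers summed to 389.6 to 767 CPM and stromal markers to 495 to 546 CPM, against 45.8 to 119.5 and 63.3 to 119.6 CPM at P3 and P5. In the GSC-like lines Sertoli markers were 22.2 to 85.9 CPM, stromal markers 126 to 510.3 CPM and macrophage markers 7.08 to 28.5 CPM, against 389.6 to 612, 495 to 546 and 418 to 557 CPM at m14. In GSC1 Sertoli markers were 50.4 to 68.6 CPM and stromal markers 189 to 278 CPM, against 68.8 to 121 and 73.9 to 98.8 CPM at P7. The Sertoli hormone gene Amh and the Leydig hormone gene Insl3 had no reads in any of the 62 libraries, also where the other Sertoli markers were abundant, so that their 0 gives no measure of these cells. The part of these cells in the results below was not tested.

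**Figure D1:**
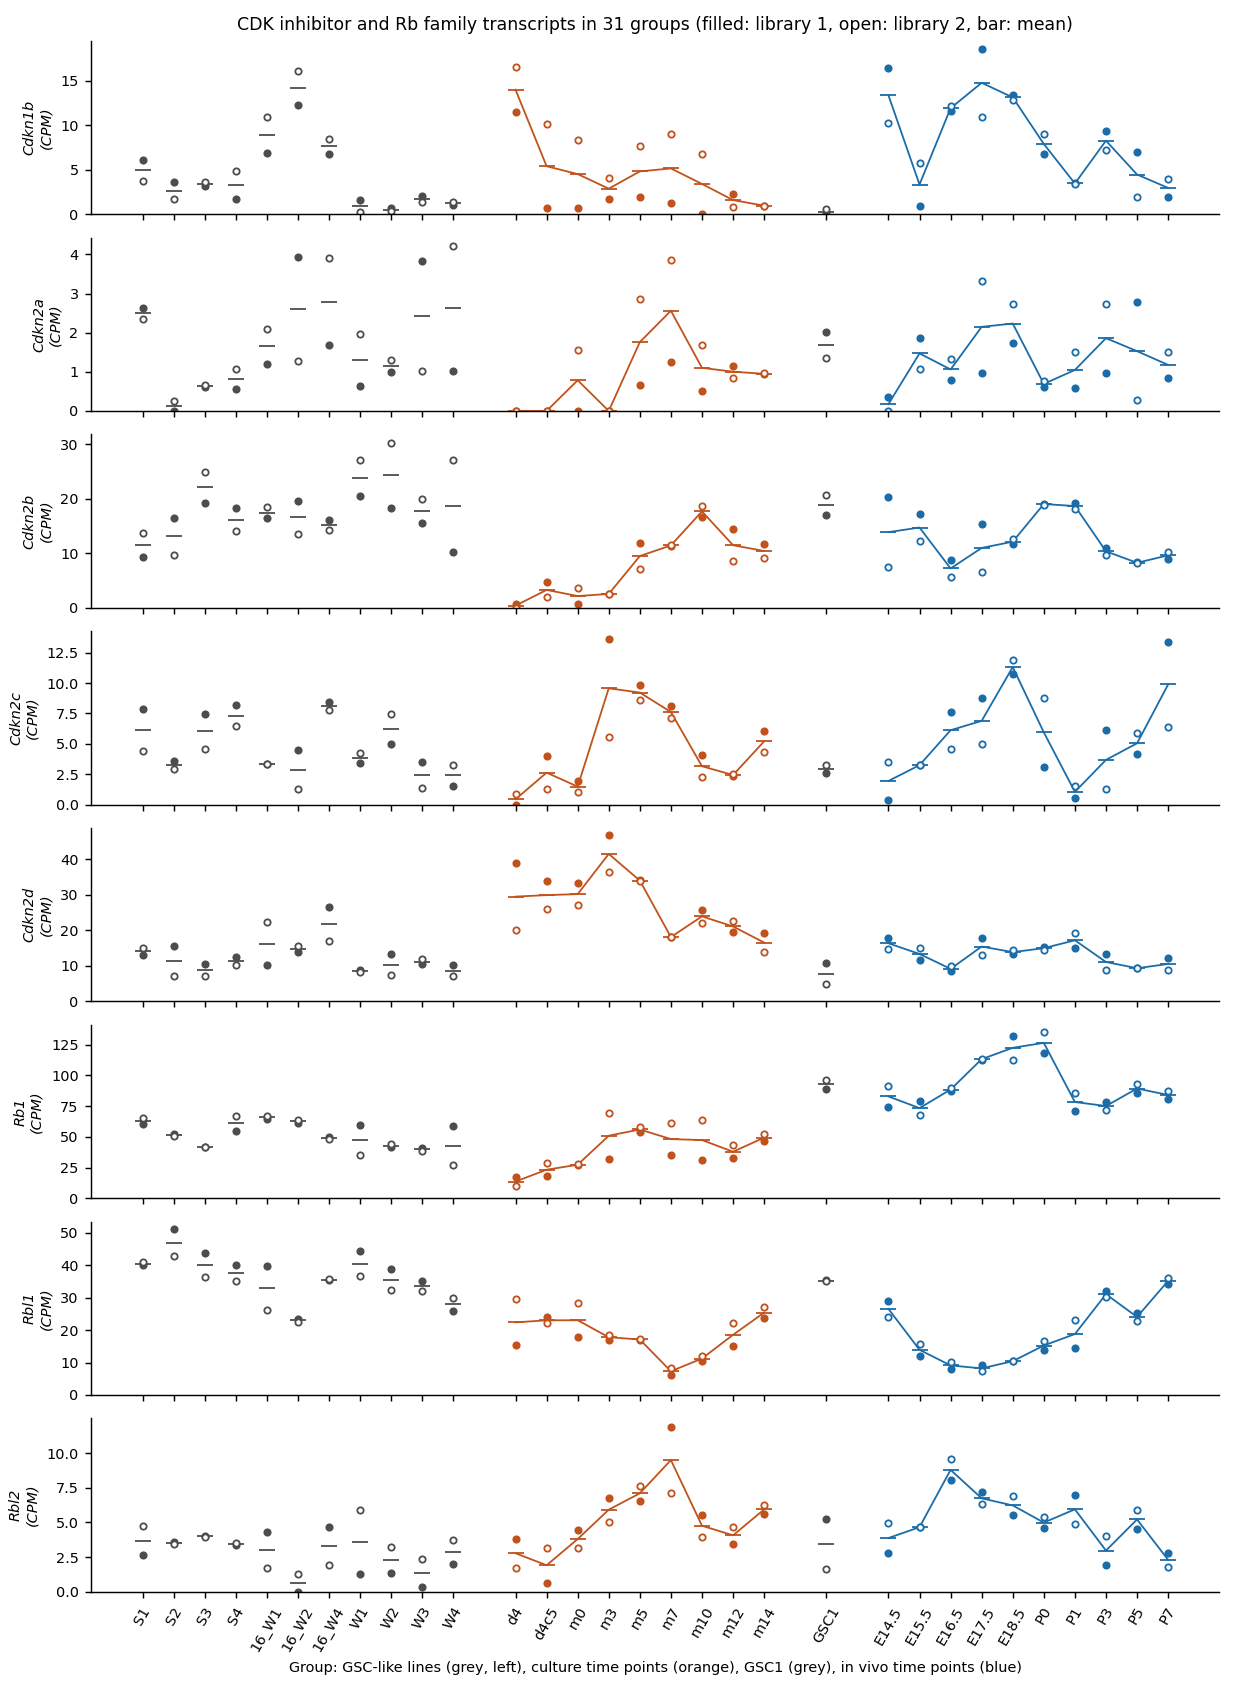
Level (CPM, vertical axes from 0) of the 8 members in each of 31 groups, with library 1 as filled points, library 2 as open points and the mean as a bar; lines join the time points of a series. Rbl1 dips to 7.32 CPM at m7 and 8.21 CPM at E17.5 and is at 25.4 CPM at m14 and 35.2 CPM at P7, while Cdkn2a stays below 4.22 CPM in every library but 1, which is at 4.22 CPM.

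The stages at rest were read from Mki67, a gene expressed in dividing cells. Its mean in culture was 320 CPM at d4, 235 at d4c5, 344 at m0, 215 at m3, 91.8 at m5, 64.4 at m7, 65.6 at m10, 218 at m12 and 254 at m14. In vivo it was 23.4 CPM at E14.5, 15.97 at E15.5, 21.8 at E16.5, 21.4 at E17.5, 23.3 at E18.5, 29.0 at P0, 82.5 at P1, 311 at P3, 260 at P5 and 223 at P7. Mki67 was thus already low at E14.5, so the comparison of E16.5 to E18.5 with E14.5 runs within the low stages, whereas m7 against m0 spans the fall in culture.

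Of the Rb family, Rbl1 was the member called at each of the 4 main transitions, lower at m7 and at E16.5 to E18.5 and higher again at m12 and m14 and at P3 to P7. In culture its libraries had 15.3 and 29.5 CPM at d4, 23.9 and 22.1 at d4c5, 17.9 and 28.2 at m0, 17.0 and 18.6 at m3, 17.1 and 17.2 at m5, 6.26 and 8.38 at m7, 10.6 and 11.9 at m10, 15.0 and 22.1 at m12, and 23.8 and 27.001 at m14. The trough lay at m7, and neither m0 nor m12 and m14 overlapped with it. Rbl1 fell by 1.67 ± 0.37 on the log2 scale at m7 against m0 (SE, adjusted p = 0.000145, edgeR's quasi-likelihood test with Benjamini-Hochberg adjustment over all tested genes). Against m7 it then rose by 1.58 ± 0.34 at m12 and m14 (adjusted p = 0.000108). The step from m5 to m7 alone passed, with a log2 change of -1.22 ± 0.39 (adjusted p = 0.0243, 10.9% of genes called).

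In vivo the libraries had 29.1 and 24.0 CPM at E14.5, 12.1 and 15.7 at E15.5, 8.03 and 10.2 at E16.5, 9.12 and 7.31 at E17.5, 10.5 and 10.4 at E18.5, 13.9 and 16.6 at P0, 14.54 and 23.1 at P1, 32.0 and 30.2 at P3, 25.3 and 22.8 at P5, and 34.3 and 36.1 at P7. Rbl1 was lowest at E16.5 to E18.5, where no library reached the lowest of P3 to P7 or of E14.5. At E14.5 it stood within the range of P3 to P7 although Mki67 was as low as at E18.5, so its fall after E14.5 came with little change in Mki67. It fell to 9.25 ± 1.34 CPM (SD, n = 6) at E16.5 to E18.5, against 26.6 ± 3.56 CPM (n = 2) at E14.5, a log2 change of -1.52 ± 0.22 (adjusted p = 2.56e-08, edgeR). It rose to 30.1 ± 5.15 CPM (n = 6) at P3 to P7, a log2 change of 1.68 ± 0.16 over E16.5 to E18.5 (adjusted p = 8.13e-15, edgeR). No single step in vivo was called for Rbl1, the step from E14.5 to E15.5 being -0.91 ± 0.27 (adjusted p = 0.013, edgeR, under 2-fold).

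Rbl2, coding for p130, ran the other way on far fewer reads. In culture it had 3.82 and 1.74 CPM at d4, 0.665 and 3.16 at d4c5, 4.47 and 3.14 at m0, 6.80 and 5.04 at m3, 6.56 and 7.63 at m5, 11.9 and 7.09 at m7, 5.56 and 3.96 at m10, 3.47 and 4.67 at m12, and 5.60 and 6.27 at m14. The m7 libraries were above every library of m0, m12 and m14. Neither difference passed, with a log2 change of 1.34 ± 0.61 at m7 over m0 (adjusted p = 0.0594) and -0.93 ± 0.48 at m12 and m14 over m7 (adjusted p = 0.106, both edgeR). The change at m7 over m0 was called with the deposited RPM scaling (1.62, adjusted p = 0.0214, edgeR), with limma on log2(RPM + 1) (1.33, adjusted p = 0.02) and without the second m7 library (1.66, adjusted p = 0.0443, edgeR).

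In vivo Rbl2 stood at 2.80 and 4.95 CPM at E14.5, 4.67 and 4.65 at E15.5, 8.03 and 9.54 at E16.5, 7.16 and 6.31 at E17.5, 5.52 and 6.93 at E18.5, 4.63 and 5.36 at P0, 6.98 and 4.91 at P1, 1.96 and 3.99 at P3, 4.51 and 5.92 at P5, and 2.79 and 1.82 at P7. Its highest mean fell at E16.5, and the highest library of P5 lay above the lowest of E18.5. Rbl2 fell by 1.11 ± 0.29 on the log2 scale at P3 to P7 against E16.5 to E18.5 (3.497 ± 1.60 against 7.25 ± 1.40 CPM, SD, n = 6 each, adjusted p = 0.00042, edgeR). That change was just past the 2-fold rule, and it came to -0.86 without P7 (adjusted p = 0.0103), -0.96 without E16.5 (adjusted p = 0.00554), -0.97 without the first P3 library (adjusted p = 0.00305) and -0.999 without the second E16.5 library (adjusted p = 0.00378). The rise at E16.5 to E18.5 over E14.5 was 0.89 ± 0.43 with an adjusted p of 0.0648 (edgeR) and was not called, though the libraries did not overlap. It was called with DESeq2 (1.16, adjusted p = 0.0349), with the deposited RPM scaling (1.19, adjusted p = 0.0127, edgeR) and with limma on log2(RPM + 1) (1.01, adjusted p = 0.0331). The span of Aktip overlaps the last part of Rbl2 on the other strand and reaches exon sequence of Rbl2. Whether exons of Aktip lie there was not examined. Aktip changed by -0.88 in the comparison of P3 to P7 with E16.5 to E18.5 (adjusted p = 2.2e-06, under 2-fold) and by 1.21 at m7 over m0 (adjusted p = 0.00703). Whether reads were counted by strand is not stated, so Rbl2 and Aktip reads cannot be told apart with certainty.

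Rb1, coding for pRB, was called at none of the 4 main transitions. In culture its means were 13.6 CPM at d4, 23.2 at d4c5, 27.3 at m0, 50.9 at m3, 56.0 at m5, 48.2 at m7, 47.4 at m10, 37.9 at m12 and 49.4 at m14. In vivo they were 82.9 CPM at E14.5, 73.4 at E15.5, 88.5 at E16.5, 113 at E17.5, 123 at E18.5, 127 at P0, 78.4 at P1, 75.1 at P3, 89.4 at P5 and 84.1 at P7. The highest culture library, at 69.6 CPM for m3, lay above the lowest in vivo library, at 67.9 CPM for E15.5, and below the other 19. The Rb1 change at P3 to P7 against E16.5 to E18.5 was -0.37 ± 0.13 (adjusted p = 0.00838), and at m7 against m0 it was 0.81 ± 0.31 (adjusted p = 0.0243, both edgeR). Both passed on p and stayed under 2-fold. At m7 against m0 Rb1 was called with the deposited RPM scaling (1.10, adjusted p = 0.00474, edgeR), with limma on log2(RPM + 1) (1.02, adjusted p = 0.00478) and without the first m7 library (1.16, adjusted p = 0.00552, edgeR). Between culture and animals Rb1 differed by a log2 change of -0.91 ± 0.18 at m12 and m14 against P3 and P5 (43.6 ± 8.43 against 82.2 ± 9.17 CPM, SD, n = 4 each, adjusted p = 5.01e-05) and by -0.74 ± 0.24 at m7 against E15.5 and E16.5 (adjusted p = 0.0228), again under 2-fold. Without the second m7 library the change at m7 was -1.20 (adjusted p = 0.00979). Strain and reporters differ between culture and animals and cannot be told apart from the culture itself. The 3′ part of Rb1 overlaps Rcbtb2 on the other strand and Gm17233 on the same strand, and Lpar6 lies within Rb1 on the other strand. Each reaches exon sequence of Rb1, so Rb1 reads carry the same doubt. At m7 against m0 Rcbtb2 changed by -1.20 (adjusted p = 9.18e-05) and Lpar6 by -2.85 (adjusted p = 0.00735, both edgeR). At P3 to P7 against E16.5 to E18.5 the changes were -0.19 (adjusted p = 0.188) and -4.58 (adjusted p = 0.000171, both edgeR). Gm17233 did not pass the filter.

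Among the INK4 genes Cdkn2c, for p18, was called higher at m7 over m0 in culture and at E16.5 to E18.5 over E14.5 in vivo. In culture it had 1.92 and 1.05 CPM at m0, 13.6 and 5.54 at m3, 9.84 and 8.59 at m5, 8.14 and 7.09 at m7, 4.05 and 2.26 at m10, 2.31 and 2.55 at m12, and 6.07 and 4.34 at m14, after 0 and 0.868 at d4 and 3.99 and 1.26 at d4c5. Every library of m3, m5 and m7 lay above every library of d4, d4c5, m0, m10 and m12. It rose by 2.37 ± 0.85 at m7 over m0 (adjusted p = 0.0158) and by 2.55 ± 0.83 at m3 over m0 (adjusted p = 0.0398, both edgeR, 5.75% of genes called in that step). Behind these stood 5 reads at m0 and 24 at m7. Without the first or the second m0 library or the first m7 library the m7 value was 2.64, 1.78 and 2.26, with adjusted p of 0.0546, 0.171 and 0.0665, and none of these was called.

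In vivo Cdkn2c had 0.350 and 3.54 CPM at E14.5, 3.27 and 3.22 at E15.5, 7.63 and 4.61 at E16.5, 8.79 and 4.98 at E17.5, 10.8 and 11.9 at E18.5, 3.08 and 8.80 at P0, 0.581 and 1.51 at P1, 6.11 and 1.25 at P3, 4.16 and 5.92 at P5, and 13.4 and 6.36 at P7. It climbed through the fetal days, was low at P1 and high again at P7. Cdkn2c rose by 1.98 ± 0.54 at E16.5 to E18.5 over E14.5 (8.11 ± 2.96 CPM, SD, n = 6, against 1.94 ± 2.25 CPM, n = 2, adjusted p = 0.00123, edgeR). Its size rested on the E14.5 libraries, at 1.09 without the first (adjusted p = 0.129, not called) and 4.28 without the second (adjusted p = 0.000626). The step from P0 to P1 passed with a log2 change of -2.45 ± 0.75 (adjusted p = 0.0131, edgeR, 12.7% of genes called). P3 to P7 did not differ detectably from E16.5 to E18.5, at -0.43 ± 0.27 (adjusted p = 0.142).

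Cdkn2b, for p15, a gene known to respond to TGF-β, had few reads in early culture. Its libraries had 0.765 and 0 CPM at d4, 4.65 and 1.896 at d4c5, 0.638 and 3.66 at m0, 2.55 and 2.52 at m3, 11.8 and 7.16 at m5, 11.3 and 11.6 at m7, 16.7 and 18.7 at m10, 14.4 and 8.498 at m12, and 11.7 and 9.16 at m14. All 10 libraries from m5 on lay above all 8 before it. Cdkn2b rose by 2.30 ± 0.70 at m7 over m0 (11.4 ± 0.229 against 2.15 ± 2.14 CPM, SD, n = 2 each, adjusted p = 0.00451, edgeR). Without the first m0 library the change was 1.45 (adjusted p = 0.116, not called) and without the second it was 3.88 (adjusted p = 0.00923). No later change passed, with -0.09 ± 0.43 at m12 and m14 over m7 (adjusted p = 0.891). In vivo its library values ran between 5.60 CPM at E16.5 and 20.3 CPM at E14.5, with means of 19.0 CPM at P0 and 18.7 CPM at P1 and of 8.25 to 10.4 CPM at P3 to P7, and none of the 9 in vivo steps passed.

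Cdkn2d, for p19, had its highest levels in culture before m7, with means of 29.5 to 30.2 CPM from d4 to m0, 41.5 CPM at m3 and 34.0 CPM at m5, then 18.1 at m7, 23.9 at m10, 21.1 at m12 and 16.6 at m14. In vivo the means lay between 9.15 CPM at E16.5 and 17.2 CPM at P1. All 10 culture libraries from d4 to m5 lay above the highest in vivo library of 19.3 CPM. No change of Cdkn2d was called. At m12 and m14 against P3 and P5 it passed on p, at 0.88 ± 0.25 (18.8 ± 3.55 against 10.2 ± 2.00 CPM, SD, n = 4 each, adjusted p = 0.0048, edgeR), without overlap of libraries and under 2-fold.

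Cdkn2a, which codes for p16 and, from another reading frame, for the p53 activator Arf, was scarce everywhere. No library exceeded 4.22 CPM, and 9 of 62 had no read. The groups d4, d4c5 and m3 had no read in either library, which allows up to 1.22, 0.972 and 0.949 CPM by a floor of 3 reads over a group, for counting error only. The highest group means were 2.56 CPM at m7 in culture, 2.79 CPM in line 16_W4, and 2.23 CPM at E18.5 in vivo. Reads from the 3′ end cannot separate p16 from Arf transcripts, which share their last exons. Cdkn2b lies on the same strand of chromosome 4, with 11645 bases between the genes.

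Cdkn1b, for p27, was high in fetal germ cells and lower after birth. In vivo it had 16.47 and 10.3 CPM at E14.5, 0.934 and 5.72 at E15.5, 11.6 and 12.2 at E16.5, 18.6 and 10.96 at E17.5, 13.4 and 12.9 at E18.5, 6.78 and 8.99 at P0, 3.49 and 3.402 at P1, 9.29 and 7.23 at P3, 6.93 and 1.97 at P5, and 1.95 and 3.94 at P7. E15.5 stood below its neighbours, and no library of P3 to P7 reached the lowest of E16.5 to E18.5. Cdkn1b fell by 1.49 ± 0.30 at P3 to P7 against E16.5 to E18.5 (5.22 ± 3.05 against 13.3 ± 2.73 CPM, SD, n = 6 each, adjusted p = 1.27e-05, edgeR). E16.5 to E18.5 and E14.5 did not differ detectably, at -0.02 ± 0.36 (adjusted p = 0.975). The dip at E15.5, with 18 reads in both libraries, passed as a step down from E14.5 (-1.87 ± 0.59, adjusted p = 0.0195, 12.4% of genes called) and a step up to E16.5 (1.71 ± 0.61, adjusted p = 0.0347, 14% called). DESeq2 called neither step, with adjusted p of 0.0824 and 0.0696.

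In culture the Cdkn1b libraries parted by number. Those numbered 1 had 11.5 CPM at d4, 0.665 at d4c5, 0.638 at m0, 1.70 at m3, 1.97 at m5, 1.25 at m7, 0 at m10, 2.31 at m12 and 0.934 at m14. Those numbered 2 had 16.501, 10.1, 8.37, 4.03, 7.63, 9.02, 6.79, 0.850 and 0.964 CPM at the same time points. The medians from d4c5 to m14 were 1.09 and 7.21 CPM. From d4c5 to m10 every library numbered 2 lay above every library numbered 1, and at m12 and m14 all 4 libraries were at or below 2.31 CPM. At m7 over m0 Cdkn1b changed by 0.07 ± 0.83 (adjusted p = 0.957), and at m12 and m14 over m7 by -2.06 ± 0.92 (adjusted p = 0.0612), neither called. With the library number as a block within culture, chosen after seeing the data, the second change was called, at -2.12 (adjusted p = 0.0264, edgeR), and without the first m7 library it was -2.88 (adjusted p = 0.0168). Cdkn1b fell by 2.28 ± 0.66 at m12 and m14 against P3 and P5 (1.26 ± 0.70 against 6.36 ± 3.10 CPM, SD, n = 4 each, adjusted p = 0.00513, edgeR), from 10 reads against 94, and without the first P5 library the change was -1.74 (adjusted p = 0.0976, not called).

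**Figure D2:**
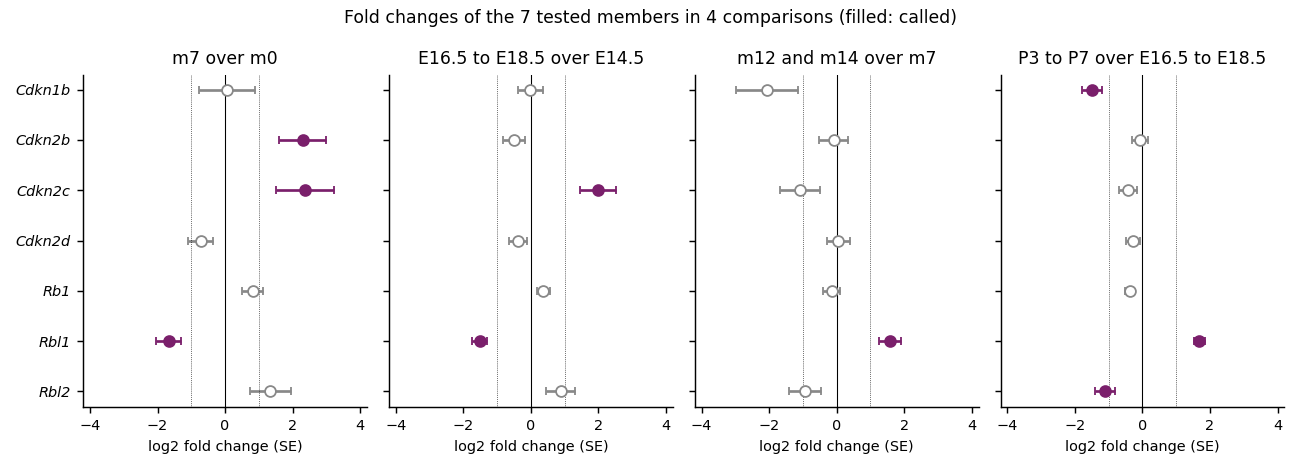
Log2 fold changes with SE of the 7 tested members (rows) at m7 over m0, E16.5 to E18.5 over E14.5, m12 and m14 over m7, and P3 to P7 over E16.5 to E18.5; filled points were called and dotted lines mark 2-fold. Rbl1 is called in each panel, at -1.67, -1.52, 1.58 and 1.68.

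Set against the genes as a whole, the counts of called members were near or below the background in the wide comparisons. Of the 7 tested members, 3 were called at m7 over m0 (Cdkn2b and Cdkn2c higher, Rbl1 lower), where 44% of all tested genes were called. At E16.5 to E18.5 over E14.5, 2 were called (Cdkn2c higher, Rbl1 lower), against 40.4% of all genes. At m12 and m14 over m7, 1 was called (Rbl1 higher), against 30.2%, and at P3 to P7 over E16.5 to E18.5, 3 were called (Rbl1 higher, Cdkn1b and Rbl2 lower), against 50.7%. Between adjacent time points, 5 of the member changes were called, those given above for Rbl1, Cdkn2c and Cdkn1b. All genes were called at 12.4%, 14%, 0.131%, 3.68%, 7.48%, 12.7%, 24.9%, 3.78% and 2.65% in the 9 in vivo steps in order of age, and at 4.54%, 2.53%, 5.75%, 15.1%, 10.9%, 7.95%, 4.77% and 0.0625% in the 8 culture steps. None of the 7 differed between the culture step (m12 and m14 over m7) and the in vivo step (P3 to P7 over E16.5 to E18.5), where 12.1% of genes did. The differences of steps were -0.10 ± 0.41 for Rbl1, -0.57 ± 0.94 for Cdkn1b, 0.18 ± 0.54 for Rbl2 and -0.65 ± 0.64 for Cdkn2c, intervals too wide to show that the steps were alike. None of the 7 was called at m7 against E15.5 and E16.5 (8.18% of genes), and 1, Cdkn1b, at m12 and m14 against P3 and P5 (14.1%).

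The partners of these genes were read from lists chosen with earlier results of these data known. Of 28 proliferation genes, of DNA synthesis and of mitosis and with Mki67 among them, 26 fell and none rose at m7 over m0. There 44% of all genes were called. Their median log2 change was -1.97 against 0.46 over all genes. At m12 and m14 over m7, 21 rose (30.2% of all genes called), with a median of 1.46 against -0.17. In vivo 10 fell and 1 rose at E16.5 to E18.5 over E14.5, a share near the 40.4% of all genes called. At P3 to P7 over E16.5 to E18.5, 27 rose (50.7% of all genes called), with a median of 2.15 against -0.19. Rrm2, a subunit of ribonucleotide reductase, averaged 11.9 CPM at m7 and 196 CPM at m0, and 101.2 CPM at P3 to P7 and 5.23 CPM at E16.5 to E18.5. Aurkb, a kinase of chromosome segregation, averaged 13.95 CPM at m7 and 223 CPM at m0, and 140 CPM at P3 to P7 and 11.6 CPM at E16.5 to E18.5.

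The list of cyclins, CDKs and their activators held 14 genes, not all of them of G1. At m7 over m0, 7 fell and 2 rose (9 called, or 64.3%, against 44% of all genes). Those that fell were Ccnd3, Ccne1 and Cdk4, and also Ccna2, Cdk1, Cdk7 and Cdc25a, outside the D and E cyclins and their kinases. At E16.5 to E18.5 over E14.5, 2 rose and 2 fell (28.6% against 40.4%). At m12 and m14 over m7, 6 rose and none fell (42.9% against 30.2%), and at P3 to P7 over E16.5 to E18.5, 9 rose and none fell (64.3% against 50.7%). Those that rose at m7 were Ccnd1 and Cdk2, so the list did not move one way there. Ccnd1, for a D cyclin upstream of the Rb proteins, was 9.54 CPM at m7 and 1.80 CPM at m0 (log2 change 2.43 ± 0.77, adjusted p = 0.00619, edgeR), 78.4 CPM at m12 and m14, and 154 CPM at P3 to P7 and 22.1 CPM at E16.5 to E18.5. Ccne1, for a cyclin E, was 17.2 CPM at m7 and 91.5 CPM at m0. Of 10 E2F and DP factors, 5 fell and 1 rose at m7 over m0 (44% of all genes called). At m12 and m14 over m7, 5 rose (30.2% of all genes called), and 7 rose at P3 to P7 over E16.5 to E18.5 (50.7%). E2f8, a repressor of the E2F family, was 3.85 CPM at m7 and 39.1 CPM at m0, and 26.5 CPM at P3 to P7 and 2.63 CPM at E16.5 to E18.5.

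Among genes of the MuvB complex and of factors linked to it, 2 of 9 fell at m7 over m0, or 22.2% called against 44% of all genes. These were Mybl2 and Foxm1, whereas the MuvB genes Lin9, Lin37, Lin52, Lin54 and Rbbp4 were not called there. Mybl2, which joins MuvB in dividing cells, was 34.6 CPM at m7 and 332 CPM at m0. At P3 to P7 over E16.5 to E18.5, 3 rose and 2 fell, where 50.7% of all genes were called. Foxm1 was at 102 against 16.6 CPM and Mybl1, a germ cell Myb gene, at 2.15 against 13.5 CPM. Of 12 tested genes of p27 breakdown, 5 fell at m7 over m0 and 4 fell at E16.5 to E18.5 over E14.5, and 3 rose at P3 to P7 over E16.5 to E18.5, with no opposite calls. These shares of 41.7%, 33.3% and 25% lay below the 44%, 40.4% and 50.7% of all genes called. Skp2, the F-box protein that marks p27 for destruction, was 24.2 CPM at m7 and 79.4 CPM at m0, and 80.6 CPM at P3 to P7 and 28.4 CPM at E16.5 to E18.5. Its cofactor Cks1b was 60.03 CPM at m7 and 252 CPM at m0, and 249 CPM at P3 to P7 and 40.6 CPM at E16.5 to E18.5.

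The remaining CIP/KIP inhibitors changed in opposite ways in both series. Cdkn1c, for p57, averaged 70.9 CPM at m7 and 8.999 CPM at m0 (log2 change 3.02 ± 0.35, adjusted p = 9.08e-11), and 40.1 CPM at P3 to P7 and 163 CPM at E16.5 to E18.5 (-1.99 ± 0.13, adjusted p = 6.19e-21, both edgeR). Cdkn1a, for the p53 target p21, averaged 6.99 CPM at m7 and 77.4 CPM at m0, 61.6 CPM at m12 and m14, and 18.2 CPM at P3 to P7 and 4.60 CPM at E16.5 to E18.5. Of 13 genes of the Ink4a/Arf and p53 axis, 2 rose and 3 fell at m7 over m0, or 38.5% called against 44% of all genes. Trp53 was 14.01 CPM at m7 and 376 CPM at m0. Bmi1, a Polycomb gene known to repress Cdkn2a, was 95.4 CPM at m7 and 20.6 CPM at m0. Other Polycomb genes of the list went the other way, Ezh2 at 75.4 against 219 CPM and Suz12 at 51.8 against 154 CPM, both called lower. Of 14 genes of prospermatogonia and their regulators, 5 fell and 3 rose at m7 over m0 (57.1% called against 44% of all genes). Among those that fell were Lefty2, at 3.51 against 196 CPM, and Lefty1, at 4.11 against 185 CPM. Among those that rose were Piwil4, at 397 against 0.581 CPM, and Dnmt3l, a cofactor of DNA methylation, at 404 against 0.842 CPM.

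Before the lines are compared, the transgene sequences set them apart. The 6 libraries of the prefix-16 lines had 35.6 to 380 RPM, the unit without the TMM adjustment, on the polyadenylation sequence named RBG, and GSC1 had 358 and 395 RPM, while the S lines had at most 0.345 RPM and the W lines at most 0.284 RPM. On the sequence named BGH the prefix-16 lines had at most 0.329 RPM and GSC1 none, the S lines 4 to 15.49 RPM and the W lines 3.63 to 12.9 RPM, the culture time points 12.4 to 99.9 RPM and the in vivo libraries 11.7 to 53.5 RPM. The labels give all lines a single genotype, whereas the S and W lines lacked the RBG signal that the prefix-16 lines and GSC1 share. Line set and transgenes cannot be told apart in prefix-16 against W lines.

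Cdkn1b was the member that varied most clearly between lines. With both libraries of a line summed, it had 5.07, 2.60, 3.44 and 3.33 CPM in S1 to S4, 8.46, 14.8 and 7.98 CPM in 16_W1, 16_W2 and 16_W4, 0.907, 0.502, 1.75 and 1.29 CPM in W1 to W4, and 0.287 CPM in GSC1, which held 2 reads in all. The 3 sets did not overlap, and GSC1, which shares the RBG sequence with the prefix-16 lines, was below all 11 lines. Cdkn1b rose by 3.14 ± 0.41 in prefix-16 lines over W lines (10.4 ± 3.81, n = 3, against 1.11 ± 0.535 CPM, n = 4, SD, adjusted p = 3.83e-05, edgeR), where 1 of 6 tested members and 2.96% of genes were called. In S lines over W lines it rose by 1.70 ± 0.46 (3.61 ± 1.05 against 1.11 ± 0.535 CPM, SD, n = 4 each, adjusted p = 0.0114), where 1 of 6 members and 1.57% of genes were called, and without line W2 the value was 1.44 (adjusted p = 0.0511, not called). In the test of any difference among the 11 lines, 2 of 7 members passed, Cdkn1b with an adjusted p of 8.08e-05 and Cdkn2d with 0.0453 (edgeR), against 22.4% of genes. Cdkn2d did not pass with the deposited RPM scaling (adjusted p = 0.0516, edgeR), where Rbl1 did (adjusted p = 0.0222), nor with limma on log2(RPM + 1) (adjusted p = 0.0917).

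**Figure D3:**
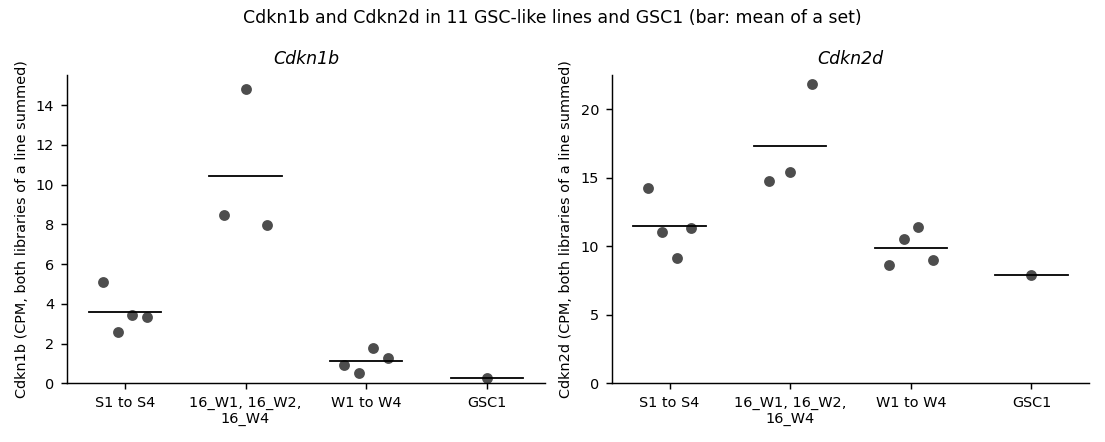
Level (CPM, vertical axes from 0, both libraries of a line summed) of Cdkn1b and Cdkn2d in the S, prefix-16 and W lines and in GSC1, with a bar at the mean of each set. Cdkn1b lies at 2.60 to 5.07, 7.98 to 14.8 and 0.502 to 1.75 CPM in the sets, and Cdkn2d is highest in the prefix-16 lines, at 14.8 to 21.9 CPM.

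Cdkn2d had 9.16 to 14.3 CPM in the S lines, 14.8 to 21.9 CPM in the prefix-16 lines and 8.62 to 11.4 CPM in the W lines. The prefix-16 value was 0.81 ± 0.21 above W (adjusted p = 0.0139, edgeR), under 2-fold, without overlap. Rb1 was 43.0 to 63.8 CPM in S lines, 50.5 to 66.3 CPM in prefix-16 lines and 40.9 to 47.6 CPM in W lines, and 94.9 CPM in GSC1. Rbl1 was 24.3 to 47.4 CPM across the 11 lines and 36.0 CPM in GSC1. Cdkn2b was 11.6 to 24.9 CPM across the lines and 19.4 CPM in GSC1, and Cdkn2c 2.46 to 8.36 CPM and 3.01 CPM. Rbl2 and Cdkn2a fell below the filter over line sums.

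The GSC-like lines were set against m14, the stage that the labels give as their source. The prefix-16 lines lacked the BGH signal of m14, at 12.4 and 15.0 RPM, in 5 of 6 libraries. They also carried an RBG signal that m14 lacked, so BGH and RBG go against that label for them. The S and W lines had the BGH signal but little of a further transgene sequence, SV40, at 11.4 and 21.7 RPM in m14. The W lines had at most 0.696 RPM of SV40, and every S library lay below both m14 libraries. The prefix-16 lines had none. Whether the S and W lines came from m14 cells was not tested. With all 11 lines, 1 of 7 members was called where 13.3% of genes were. Rbl2 fell by 1.17 ± 0.46 (2.88 ± 1.51 CPM, n = 22 libraries, against 5.93 ± 0.471 CPM, n = 2, SD, adjusted p = 0.0433, edgeR). The call did not hold without the prefix-16 lines (-0.99, adjusted p = 0.0851), with lines as units (-0.93, adjusted p = 0.173), nor without either m14 library or any of 6 single line libraries (adjusted p of 0.0509 to 0.248). By their labels the lines differ from m14, and GSC1 from P7, in strain and reporters, which cannot be told apart from growth as a line. GSC1 against P7 had 1 of 7 called where 14.3% of genes were. Cdkn2c fell by 1.75 ± 0.50 (2.94 ± 0.465 against 9.88 ± 4.98 CPM, SD, n = 2 each, adjusted p = 0.00682), and without the first P7 library the change was -1.10 (adjusted p = 0.277) and without the first GSC1 library -1.60 (adjusted p = 0.0714). Cdkn1b had 2 reads in GSC1 and 20 at P7, a change of -3.18 ± 1.23 with an adjusted p of 0.0524.

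**Figure D4:**
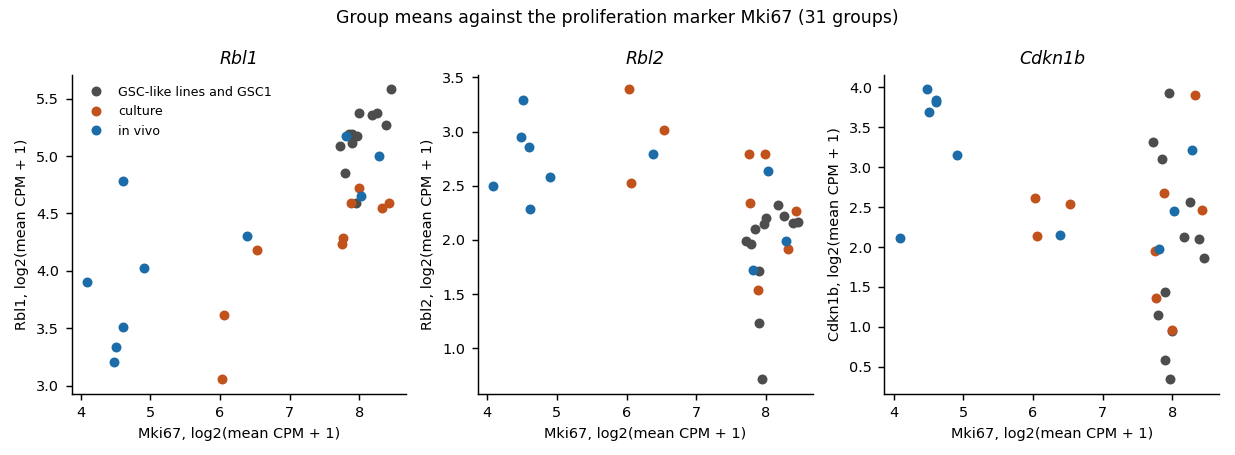
Group mean level of Rbl1, Rbl2 and Cdkn1b against that of Mki67, on log2(mean CPM + 1) axes, for the GSC-like lines and GSC1, the culture time points and the in vivo time points (31 groups). Rbl1 is highest where Mki67 is high, with r = 0.76 over group means, and Rbl2 is lower there, with r = -0.56.

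Across the 31 group means of log2(CPM + 1) the members did not form a block. The correlation with Mki67 was 0.76 for Rbl1, -0.56 for Rbl2, -0.55 for Rb1, -0.42 for Cdkn1b, -0.18 for Cdkn2c, -0.14 for Cdkn2b and -0.05 for Cdkn2d, given as a description since neighbouring time points share their source. Rbl1 and Rbl2 were opposed, with r = -0.63 over the 31 groups and -0.89 over the 10 in vivo time points. Cdkn2b and Cdkn2d gave 0.81 in vivo and -0.63 over all groups.

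Among the genes most like each member over these 31 means were Tmem33, Krr1 and Crkl for Rbl1 (r = 0.92 to 0.94) and Dcaf8l, Xlr3c and Cox7b2 for Cdkn2b (0.90 to 0.92). For Cdkn2d they were Mgat4b, Tm7sf2 and Ucp2 (0.86 to 0.90), for Rb1 Gsk3b, Bmi1 and Plekha8 (0.88 to 0.90), and for Rbl2 Vps9d1 and Myo7a (0.81 and 0.78). Cdkn2c and Cdkn1b had no close companion, with highest values of 0.70 for Elmod2 and 0.68 for Cwc27.

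The members lie, on GRCm38 in the GENCODE M21 annotation, at chr6:134920401-134925513 on the plus strand (Cdkn1b), chr4:89274471-89294653 on the minus strand (Cdkn2a), chr4:89306299-89311039, minus (Cdkn2b), chr4:109660876-109667189, minus (Cdkn2c), chr9:21288410-21291407, minus (Cdkn2d), chr14:73183673-73325822, minus (Rb1), chr2:157145893-157204534, minus (Rbl1) and chr8:91070057-91123844, plus (Rbl2). Each span covers the gene from its first to its last annotated exon.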

How the data were processed

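Total RNA was read at transcript 3′ ends in 62 libraries of sorted mouse germ cells and GSC-like lines. The authors deposited, for each library, read counts per gene and RPM values scaled to nuclear reads. Per the submitters' processing notes, cutadapt 1.9.1, TopHat2 2.0.11, Bowtie2 2.2.7, HTSeq 0.9.1 and GRCm38.p6 were used, while annotation and strand setting are not stated. The deposited RPM values served as an alternative scaling only.

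Of 36038 rows per library, 35914 nuclear genes entered the library totals, and 13 mitochondrial genes, 96 spike-ins and 5 transgene sequences did not. Genes at 5 or more RPM in at least 2 libraries were tested in edgeR 4.0.16 (R 4.3.3) with TMM scaling and the quasi-likelihood test, 1 coefficient for each of 31 groups, and Benjamini-Hochberg adjustment over all tested genes. W, S and prefix-16 lines were compared with the 2 libraries of a line summed. Calls needed an adjusted p under 0.05 and a change of 2-fold or more. SEs are on the log2 scale. Alternatives used limma 3.58.1 and DESeq2 1.42.0. The fit was tested on simulated data.

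The members and gene lists were chosen with earlier results of these data known. Besides the members and Mki67, the genes named were up to 4 called genes with the largest changes per list and comparison, and the 3 genes most correlated with each member, of which 1 is not reported here. Same-numbered libraries deviated together from d4c5 to m10 (15 pairs of time points, correlations of 0.17 to 0.33). Over the compared culture time points m0, m7, m12 and m14 the correlations were weaker, at 0.03 to 0.21 (median 0.12). In vivo they ran from -0.05 to 0.03 (median 0.004). The labels do not say what the number marks. Floors of 3 reads cover counting error only.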

Additional observations from a re-analysis of the deposited data

Results flagged for a closer look

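Of 56 sets of 4 to 10 samples examined for a sample far from the others, 3 held one, and chance gives about 1 in 20. Cdkn1b was 18.6 CPM in the first E17.5 library, above the nearest of the other E16.5 to E18.5 libraries at 13.4 CPM. Cdkn1b was 2.31 CPM in the first m12 library, against 0.964 CPM in the nearest of the other m12 and m14 libraries. Cdkn2d was 13.2 CPM in the first P3 library, against 9.36 CPM in the nearest of the other P3 and P5 libraries.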

How the results depend on the processing

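No alternative turned a called change round. With 1 library left out at a time, the number of members called ran from 1 to 3 for E16.5 to E18.5 against E14.5. It ran from 2 to 3 for P3 to P7 against E16.5 to E18.5, 1 to 4 for m7 against m0, and 1 to 2 for m12 and m14 against m7. The range was 0 to 1 for m7 against E15.5 and E16.5, and 0 to 2 for m12 and m14 against P3 and P5. For lines against m14 and for GSC1 against P7 it was 0 to 1 each. Between line sets, a whole line was left out at a time. This gave 0 to 1 for S against W lines, and 1 throughout for prefix-16 against W lines. With the deposited RPM scaling, 5 members were called at m7 against m0, 2 at m12 and m14 against P3 and P5, 2 in GSC1 against P7, and 8 over adjacent steps. This scaling moved the median of all genes by 0.299 (log2) at E16.5 to E18.5 against E14.5, 0.283 at m7 against m0, 0.193 at m7 against E15.5 and E16.5, 0.136 at m12 and m14 against P3 and P5, and 0.111 in the difference of steps. Without a filter, 2 were called at m12 and m14 against m7, 0 in lines against m14, and 3 in GSC1 against P7. A filter of 20 RPM kept 4 members, with 1 called at E16.5 to E18.5 against E14.5, 1 at P3 to P7 against E16.5 to E18.5, and 0 each at m12 and m14 against P3 and P5 and in lines against m14. With limma on log2(RPM + 1), 5 were called at m7 against m0, 0 in GSC1 against P7, and 1 in the variation among lines. With limma on log2(RPM + 5), which shrinks changes of low genes, 1 was called at E16.5 to E18.5 against E14.5, 1 at P3 to P7 against E16.5 to E18.5, and 0 each at m12 and m14 against P3 and P5, in lines against m14, and in GSC1 against P7. DESeq2 called 2 at m12 and m14 against m7 and 2 in GSC1 against P7, and lines as units, or leaving out the prefix-16 lines (chosen after seeing the data), gave 0 for lines against m14. Cdkn1b was the added member at m12 and m14 against m7 without a filter and with DESeq2, and Rb1 and Rbl2 at m7 against m0 with the deposited scaling and limma on log2(RPM + 1). The cause of these shifts was not tested.

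Library numbers paired the samples from d4c5 to m10 in the data, and more weakly over the compared culture time points m0, m7, m12 and m14. At m7 against m0, which lies between d4c5 and m10, the blocks changed no member call. With the replicate block, 2 members were called in GSC1 against P7, and with a block within culture only, chosen after seeing the data, 2 at m12 and m14 against m7, the added one being Cdkn1b at -2.12 (adjusted p = 0.0264, edgeR). Without the filter, Cdkn2a was called at E16.5 to E18.5 against E14.5 with 3.03 ± 1.21 (adjusted p = 0.0369, edgeR, 30210 genes tested) and in none of the other 8 comparisons. Few reads limited Cdkn1b, Cdkn2c, Rbl2 and Cdkn2a most.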
